A study of Mus musculus with 32 samples.

Results

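Serpins are a family of protease inhibitors, some of which have lost that activity and carry hormones or fold collagen instead. An inhibitory serpin offers a bait loop to its target protease; once the loop is cut, the serpin changes shape and holds the protease in a stable complex that is then cleared. Hepatocytes secrete most of the serpins of blood plasma, those that restrain clotting, fibrinolysis, complement and neutrophil elastase, while the clade B serpins mostly stay inside cells. Mice carry expanded sets of near-identical copies where humans have a single gene, among them the Serpina1 copies for alpha-1-antitrypsin and the Serpina3 copies related to alpha-1-antichymotrypsin.

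The family was read from a table of 27179 genes by symbol, taking every Serpin of clades A to I with its number, pseudogenes included. This gave 65 genes: 26 of clade A, 28 of clade B, 3 of clade E, 2 each of clades F and I, and 1 each of clades C, D, G and H. Most lie in 3 clusters: 25 clade A genes within 798 kb of chromosome 12 (chr12:103616675-104414334), 12 clade B genes on chromosome 1 (chr1:106861175-107608978) and 16 clade B genes on chromosome 13 (chr13:32842092-34002794), all on GRCm38.p6. The measurement was chromatin immunoprecipitation of RNA polymerase II (Pol II, through its C-terminal domain), followed by sequencing, in mouse liver, brain, heart and kidney. Each organ was kept in 2 ways: FFPE tissue was fixed in 10% formalin, embedded in paraffin, then deparaffinized and heated, whereas frozen tissue was flash frozen and its cores were crosslinked in 1% formaldehyde for 30 min. The labels give no strain, age, sex or number of animals, and name no genetic change or other treatment. Every organ and preservation has 1 column, called a profile here, and nothing states whether it holds 1 library or 2 combined.

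Values are log2 CPM as the authors deposited them, that is reads plus 0.5, divided by a scaled total so that profiles of different depth can be compared. Profile totals ran from 864816 reads in FFPE liver to 2178329 in frozen liver, and the median family member had between 10 and 34 reads a profile. Family members held 0.177% of the reads in FFPE liver and 0.427% in frozen liver, against 0.0799% to 0.114% in the other 6 profiles. Organ markers matched the labels: all 6 hepatocyte, all 6 cardiomyocyte, all 6 neuron and 5 of 6 proximal tubule markers were called higher in their own organ. Olfactory and vomeronasal receptor genes, which these organs are not known to use, also drew reads (5547 to 16763 a profile over 1485 rows), so a low count does not by itself show Pol II on a gene. In whole organs, fewer cells of a type and less Pol II per cell cannot be told apart, and p-values measure only the spread between these profiles. Levels are not corrected for gene length and are compared here between profiles, not between genes.

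The 5 Serpina1 copies that stand apart below share much of the stretch just upstream of their annotated starts, which is shown as an example of how alike they are. This stretch lies outside the annotated genes, so it does not measure how alike the counted bases are or how reads were shared among copies. From RefSeq (GRCm38.p6, minus strand of chromosome 12), 106 bases of each are given 5′ to 3′, with capitals at the 10 positions where the copies differ.
Serpina1a (chr12:103863625-103863730): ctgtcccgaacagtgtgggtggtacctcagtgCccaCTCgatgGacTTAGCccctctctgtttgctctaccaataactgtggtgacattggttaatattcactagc
Serpina1b (chr12:103738200-103738305): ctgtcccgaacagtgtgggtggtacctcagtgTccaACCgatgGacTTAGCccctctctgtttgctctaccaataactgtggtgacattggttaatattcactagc
Serpina1c (chr12:103904962-103905067): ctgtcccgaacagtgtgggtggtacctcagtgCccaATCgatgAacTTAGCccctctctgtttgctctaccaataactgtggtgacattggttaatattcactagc
Serpina1d (chr12:103773634-103773739): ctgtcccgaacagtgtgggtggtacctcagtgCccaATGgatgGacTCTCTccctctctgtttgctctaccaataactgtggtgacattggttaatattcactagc
Serpina1e (chr12:103956960-103957065): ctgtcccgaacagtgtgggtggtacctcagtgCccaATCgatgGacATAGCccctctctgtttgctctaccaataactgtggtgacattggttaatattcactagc
The other 96 positions were the same in all 5 copies, and pairs of copies differed at 2 to 7 positions, an identity of 93.4% to 98.1%. The letters TTGCNNAA, read by C/EBP factors, were searched on both strands in the 250 bases before each start. They were in 9.56% of 32851 such windows, in 12 of the 54 family members that had one, and in 5 of the 13 with a window that were called higher in liver, among them Serpina1b, Serpina1d and Serpina1e. A match is a description of the letters and not a site of binding.

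**Figure D1:**
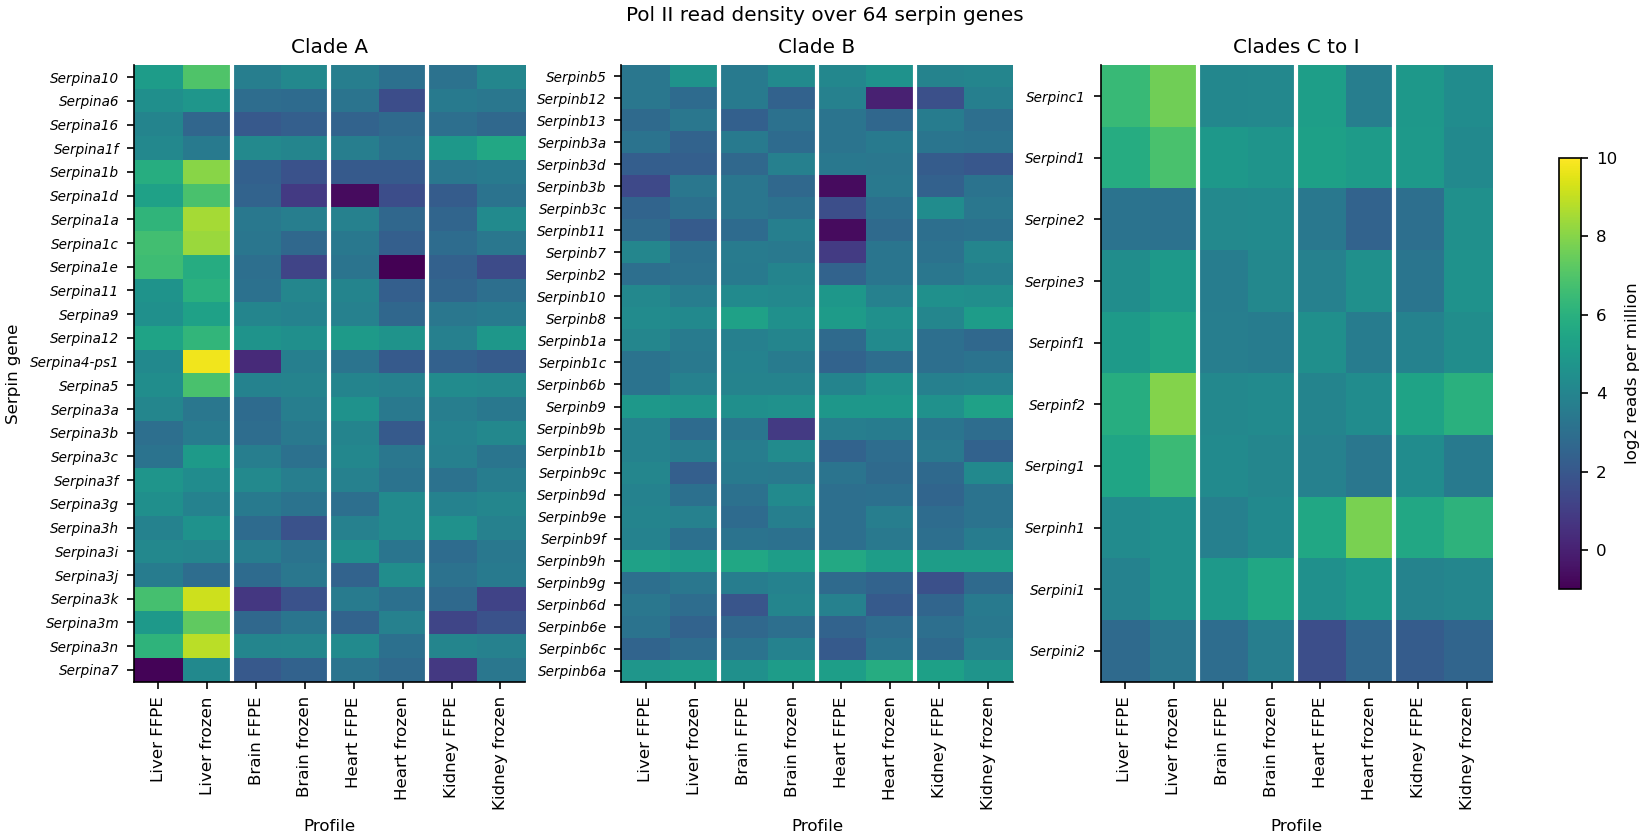
Pol II read density (color, log2 CPM) over 64 of the 65 serpin genes (rows, clades A and B in chromosome order) in the 8 profiles (columns). Most bright cells lie in the 2 liver columns of clade A and of clades C to I, with Serpinh1 in frozen heart as another, whereas no clade B gene was called higher in liver.

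Each organ was compared with the mean of the other 3 organs to ask which serpins carry more or less Pol II there. Where single profiles are left out below, the share of all genes called is not given. Those counts of members can therefore also move with the number of calls over all genes. In liver, 18 of the 65 members were higher (27.7%) and 1 was lower, where 4.52% of all 26758 genes tested were higher and 3.39% lower. The median log2 fold in liver was 0.39 over the members and -0.02 over all genes tested. By clade, 13 of 26 genes of clade A were higher, as were Serpinc1, Serpind1, Serping1 and both clade F genes, against none of 28 in clade B and none of 3 in clade E. Of all 65 members, 21 had both liver profiles above the other 6, a pattern that 7.29% of all genes showed. Among these were 17 of the 18 called, which were chosen on the same profiles.

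The alpha-1-antitrypsin copies encode the main plasma inhibitor of neutrophil elastase. Summed over Serpina1a to Serpina1e, there were 341 reads in FFPE liver and 2102 in frozen liver, against 78 and 49 in FFPE and frozen brain, 29 and 26 in FFPE and frozen heart, and 45 and 99 in FFPE and frozen kidney. Both liver profiles were far above the other 6, with a log2 fold of 4.31 ± 0.34 (SE) and an adjusted p of 2.84e-08 by limma. Taken singly, the 5 copies had log2 folds between 3.95 ± 0.48 (Serpina1a) and 4.56 ± 0.71 (Serpina1e), each past the threshold of 0.05 on the adjusted p.

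The copies did not take equal parts of these reads, although the annotated genes have nearly the same length (9967 to 10325 bases). Serpina1e held 89 of the 341 reads in FFPE liver (26.1%, 95% exact binomial interval 21.5 to 31.1) and 105 of the 2102 in frozen liver (5.00%, 4.10 to 6.01). Serpina1a held 19.9% (15.8 to 24.6) in FFPE liver and 32.6% (30.6 to 34.6) in frozen liver. Serpina1c, at 27.9% in FFPE liver and 28.7% in frozen liver, and Serpina1d, at 10.6% in FFPE liver and 10.1% in frozen liver, differed by less than their intervals. These intervals cover counting error only, and how reads that fit several copies were counted is not given, so single copies are uncertain. Serpina1f, a sixth and more distant relative beside them, was not higher in liver: it had 4.15 in FFPE liver and 3.52 in frozen liver, within the range of 3.07 to 5.58 in the other 6 profiles.

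The Serpina3 copies differed among themselves. Summed, the 11 copies had 308 reads in FFPE liver and 2491 in frozen liver, against 121 to 231 in the other 6 profiles, a log2 fold of 2.43 ± 0.30 with an adjusted p of 1.21e-05 by limma. Only 3 of the 11 passed the test alone, those at the end of the row: Serpina3k, which binds tissue kallikrein, Serpina3m, and Serpina3n, an acute-phase inhibitor. Serpina3k had 100 reads in FFPE liver and 1077 in frozen liver, against 3 to 12 in the other profiles. Its log2 fold of 5.76 ± 0.58 was the largest of the family (adjusted p = 8.26e-07). Serpina3n had log2 values of 6.16 in FFPE liver and 8.84 in frozen liver, against a lowest, median and highest of 3.07, 4.00 and 4.28 elsewhere. Its log2 fold was 3.63 ± 0.47 and that of Serpina3m was 3.55 ± 0.52. The other 8 copies, Serpina3a to Serpina3j, did not pass, and together the 3 that did held 63.0% of the group's reads in FFPE liver and 89.8% in frozen liver.

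Serpina4-ps1, a transcribed pseudogene in the same cluster, had 17 reads in FFPE liver and 1632 in frozen liver, against 2 to 25 in the other 6 profiles. On the log2 scale these were 4.23 in FFPE liver and 9.76 in frozen liver, against 0.30 to 3.75 elsewhere. Frozen liver alone stood far above the rest, and the log2 fold of 4.67 ± 0.81 (adjusted p = 0.00055) fell to 2.25 without that profile, with an adjusted p of 0.287.

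Inhibitors of clotting and fibrinolysis were the next group. Serpinc1 (antithrombin, the main brake on thrombin and factor X; chr1:160978583-161002543) had log2 values of 6.40 in FFPE liver and 7.60 in frozen liver, against 4.09 and 4.14 in FFPE and frozen brain, 5.16 and 3.71 in FFPE and frozen heart, and 4.88 and 4.37 in FFPE and frozen kidney. Neither liver profile overlapped the others, and the log2 fold was 2.61 ± 0.37 (adjusted p = 6.05e-05). Serpina10, the inhibitor that works with protein Z, had a log2 fold of 2.39 ± 0.43. Serpina5, the protein C inhibitor, had log2 values of 4.39 in FFPE liver and 6.86 in frozen liver, against 3.85 to 4.29 elsewhere, so FFPE liver lay just above the rest. Its log2 fold of 1.61 ± 0.44 was 0.35 without frozen liver (adjusted p = 0.849), and the call was also lost without frozen brain, frozen heart or frozen kidney. Serpind1 (heparin cofactor II) had 1.50 ± 0.31, but it lies inside Pi4ka, so reads of both genes cannot be separated without strand. Serpinf2 (alpha-2-antiplasmin, which inhibits plasmin) had log2 values of 5.87 in FFPE liver and 7.98 in frozen liver. Of the 18 called members, only Serpinf2 had liver values that overlapped the rest, because frozen kidney reached 5.96. Its log2 fold was 2.25 ± 0.33 (adjusted p = 8.74e-05).

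The remaining liver genes have other roles. Serping1, the C1 inhibitor of complement and the contact system, had 41 reads in FFPE liver and 168 in frozen liver, against 11 to 38 elsewhere, a log2 fold of 2.09 ± 0.39 (adjusted p = 0.00102). Serpina11 had a log2 fold of 2.14 ± 0.52, Serpina12 (vaspin) one of 1.25 ± 0.33 and Serpinf1 (PEDF, a serpin that does not inhibit proteases) one of 1.26 ± 0.39, the last with an adjusted p of 0.0475. The Serpinf1 call was lost on leaving out any single profile other than FFPE heart, and that of Serpina12 without frozen liver, frozen brain, frozen heart or FFPE kidney. Of the hormone carriers, Serpina6 (corticosteroid-binding globulin) had log2 values of 4.46 in FFPE liver and 4.78 in frozen liver, both above the highest of 3.55 elsewhere. Its log2 fold of 1.70 ± 0.53 missed the threshold (adjusted p = 0.0502) but passed by limma with voom precision weights (1.77 ± 0.42, adjusted p = 0.00419). Serpina7 (thyroxine-binding globulin, on the X chromosome) had 0 reads in FFPE liver, which allows up to 3, and 34 in frozen liver, against 2 to 19 elsewhere, so its liver values lay on both sides of the others.

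Leaving out single profiles, the count of members higher in liver ran from 15 to 20, except that without frozen liver it was 8. Those 8, called under every such setting, were Serpina1a to Serpina1e, Serpina3k, Serpina3n and Serpinc1. The 1 member lower in liver was Serpinh1, the collagen chaperone, at 4.31 in FFPE liver and 4.53 in frozen liver, against 3.81 to 7.77 elsewhere (-1.09 ± 0.33, adjusted p = 0.0456), and it was not called without frozen liver, either brain profile, frozen heart or either kidney profile.

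**Figure D2:**
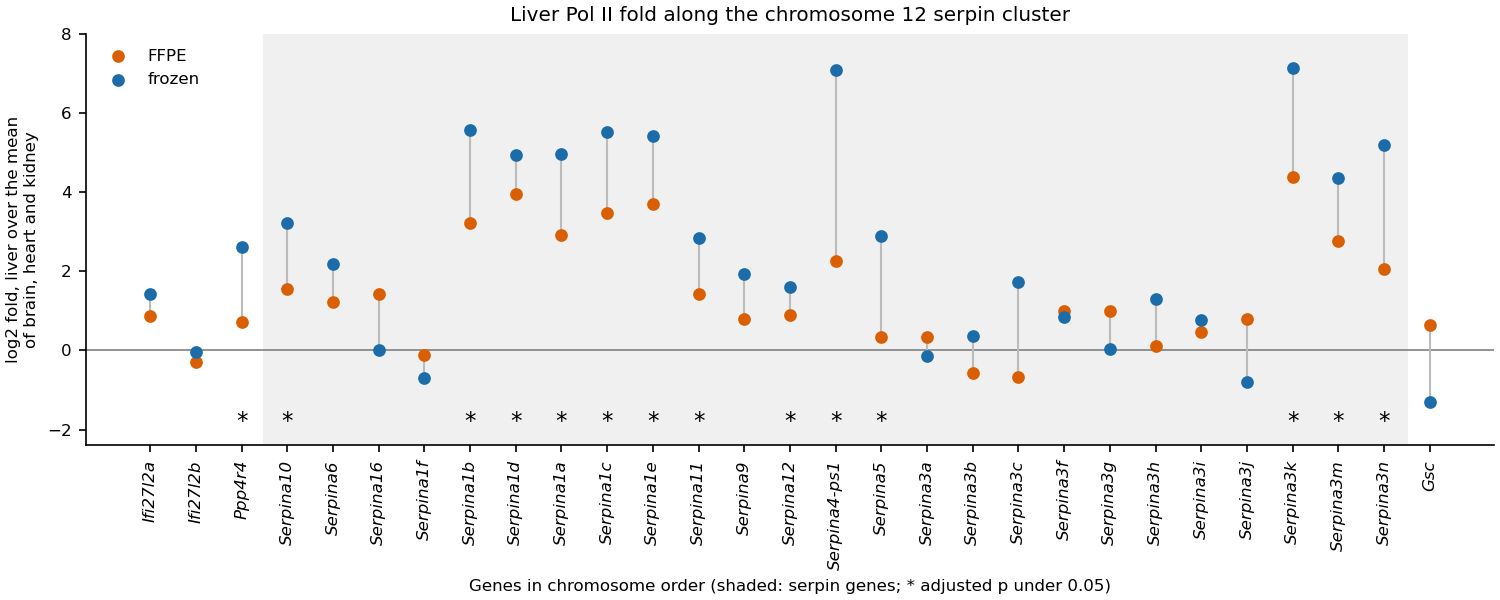
Log2 fold of liver over the mean of brain, heart and kidney (vertical axis), within FFPE and within frozen tissue (points), for the genes of the chromosome 12 cluster in chromosome order with their nearest annotated neighbors in the table. The called genes, marked by a star, form several runs, and Ppp4r4, just before the cluster, was called too.

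Along the chromosome 12 cluster, 13 of 25 members were higher and none lower, with a median log2 fold of 1.61. They were not spread evenly: the 5 Serpina1 copies stand next to each other, Serpina11 to Serpina5 follow with the uncalled Serpina9 between them, and the run of Serpina3a to Serpina3j separates these from Serpina3k, Serpina3m and Serpina3n. Of the neighbors outside the cluster, Ppp4r4, a phosphatase regulator, ends just before Serpina10. It had log2 values of 5.70 in FFPE liver and 7.37 in frozen liver, against 3.98 to 5.26 elsewhere. By limma it was higher in liver (1.67 ± 0.34, adjusted p = 0.00257), but the log2 fold was 0.73 without frozen liver. Ifi27l2a, Ifi27l2b and Gsc were not called (log2 folds of 1.15, -0.16 and -0.33).

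Clade B showed no such pattern. None of its 28 members was called in any organ, where in liver 4.52% of all genes tested were higher and 3.39% lower. With shares this small, the lack of a call among 28 genes says little by itself. The low reads of many of them also limit what could be called. Their median log2 fold in liver was 0.0018, and their mean levels over the 8 profiles ran from 2.41 to 5.25. Serpinb9, an inhibitor of granzyme B, had log2 values of 4.88 and 4.69 in FFPE and frozen liver, 4.49 and 4.58 in FFPE and frozen brain, 4.82 and 4.83 in FFPE and frozen heart, and 4.57 and 5.30 in FFPE and frozen kidney. Serpinb9h was the clade B member with the highest mean, and its profiles all lay between 5.03 and 5.63. Summed over copies, the Serpinb1, Serpinb3, Serpinb6 and Serpinb9 groups had log2 folds in liver of 0.35, -0.46, -0.27 and 0.08, none past the threshold. Serpinb6a, with 408 reads over the 8 profiles, overlaps Nqo2, Ripk1 and 1110046J04Rik, so its reads and those of the Serpinb6 sum are uncertain. Several single members were at 0 or 1 reads in a heart profile (Serpinb3b and Serpinb11 at 0 in FFPE heart, Serpinb7 at 1 there, Serpinb12 at 1 in frozen heart). Neutrophil markers summed to between 30.9 and 55.4 CPM in the 8 profiles, and none of 6 was called in any organ. Around the clusters, Wrnip1 before the chromosome 13 cluster was higher in liver (1.12 ± 0.26, and 0.81 to 1.42 leaving out single profiles). Mylk4 there was lower (-1.02 ± 0.29), but its liver values overlapped the others and the call was lost in 6 of these 8 settings. Mylk4 was higher in heart (1.76 ± 0.29), one of the organs that liver is set against. Bcl2, Kdsr and Vps4b before the chromosome 1 cluster were not called.

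In heart, 2 of 65 members were higher (3.08%), where 3.06% of all genes were. One was Serpinh1 (HSP47, the collagen chaperone of the endoplasmic reticulum; chr7:99345375-99353239), known from connective tissue. Serpinh1 had log2 values of 5.56 in FFPE heart and 7.77 in frozen heart, against 4.31 and 4.53 in FFPE and frozen liver, 3.81 and 4.23 in FFPE and frozen brain, and 5.58 and 6.12 in FFPE and frozen kidney. Frozen heart was the highest, while FFPE heart overlapped kidney; the log2 fold was 1.90 ± 0.33 (adjusted p = 0.00102).
With both liver profiles left out, the same 2 genes were higher in heart (1.73 ± 0.29 for Serpinh1; background 5.32%). Endothelial markers moved the same way: 4 of 5 were higher in heart, and their summed level was 604 and 737 CPM in FFPE and frozen heart, against 145 to 358 elsewhere. Of the fibroblast markers, 1 of 5 (Col3a1) was higher, with a summed level of 334 and 354 in FFPE and frozen heart, against 173 to 244 elsewhere. The part of these cell types in the result was not tested. Leaving out single profiles, the count of 2 was 0 without frozen heart and 1 without FFPE heart, FFPE brain, frozen brain or frozen kidney; without frozen heart the Serpinh1 fold was 0.99, with an adjusted p of 0.295.

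Lower in heart were 5 members (7.69%, background 2.18%): Serpina1d, Serpina1e, Serpina1b and Serpina1c by 3.02, 2.60, 2.03 and 1.68 on the log2 scale, and Serpinf2 by 1.43. Serpina1d was at 0 reads in FFPE heart and Serpina1e in frozen heart, so their folds depend on the 0.5 reads added. Serpina1e ran from -4.44 to -0.77 on leaving out single profiles, and its call was lost in 5 of these 8 settings. With voom precision weights none of these 4 copies was called, and the 3 lower members were Serpina1a, Serpina3n and Serpinf2. Summed over Serpina1a to Serpina1e, the log2 fold in heart was -1.87 ± 0.34 (adjusted p = 0.00146), and -0.49 with both liver profiles left out (adjusted p = 0.400). All 5 are among those higher in liver, and liver is one of the organs that heart is set against here. With both liver profiles left out, none of these 5 was called, and the 1 lower member was Serpina1f (-1.26 ± 0.40, background 3.84%). Without FFPE liver the count of 5 was 10; it was 3 without FFPE kidney, 2 without FFPE brain, FFPE heart or frozen kidney, and 1 without frozen heart.

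In brain no member was higher (background 3.43%) and 7 were lower (10.8%, background 4.02%). Serpinh1 was lower in both brain profiles than in any other profile, by 1.63 ± 0.33 (adjusted p = 0.00276) on the log2 scale. Serpina3h, annotated as a transcribed pseudogene, had 14 reads in FFPE brain and 6 in frozen brain. Its log2 values there were 2.84 and 1.78, against 3.84 to 4.60 elsewhere, and it was lower by 1.86 ± 0.48. The Serpina3h call was lost in 4 of the settings that left out a single profile, and single copies are uncertain. Summed, the Serpina3 copies had a log2 fold in brain of -1.11 ± 0.30 (adjusted p = 0.0245 by limma). The summed Serpina1a to Serpina1e copies had -1.46 ± 0.34 (adjusted p = 0.00830 by limma). Liver, where both sums were higher, is one of the organs that brain is set against. With both liver profiles left out, 3 of the 7 were lower (background 5.41%), among them Serpinh1 (-2.24) and Serpina3h (-1.82), whereas Serpina3k, Serpina1b, Serpinf2 and Serpinc1 were not called. Serpini1 (neuroserpin, an inhibitor of tissue plasminogen activator made by neurons; chr3:75557493-75642523) had log2 values of 4.97 in FFPE brain and 5.56 in frozen brain, against 3.86 and 4.50 in FFPE and frozen liver, 4.54 and 4.90 in FFPE and frozen heart, and 3.93 and 4.04 in FFPE and frozen kidney. Both brain profiles were the highest, but the log2 fold of 0.97 ± 0.34 missed the threshold (adjusted p = 0.0911) and passed only with voom precision weights (0.98 ± 0.29, adjusted p = 0.0240). Serpine2 (protease nexin-1, a thrombin inhibitor known from glia) had log2 values of 4.17 in FFPE brain and 4.27 in frozen brain, but frozen kidney reached 4.50, and it was not called (0.92 ± 0.51, adjusted p = 0.373). Leaving out single profiles, the count of 7 lower members was 12 without FFPE liver, 4 without FFPE kidney, 3 without FFPE brain and 1 without frozen brain.

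In kidney no member was higher (background 0.919%) and 1 was lower (background 0.456%). This was Serpina3m, at 3 reads in FFPE kidney and 6 in frozen kidney, against 4 to 298 elsewhere (-2.57 ± 0.52, adjusted p = 0.00908). Single copies are uncertain, and the summed Serpina3 copies were not called in kidney (-0.80 ± 0.30, adjusted p = 0.279 by limma). Serpinf2 had its second highest values in kidney, with 5.37 and 5.96 in FFPE and frozen kidney, against 3.97 to 4.35 in brain and heart. With both liver profiles left out, Serpinf2 (1.49 ± 0.33, adjusted p = 0.00280) and Serpina1f (1.49 ± 0.40, adjusted p = 0.0170) were higher in kidney, where 2.28% of all genes were, and none was lower (background 2.35%). Serpina1f had log2 values of 4.88 in FFPE kidney and 5.58 in frozen kidney, both above all other profiles. With liver included it had 1.46 ± 0.41 and an adjusted p of 0.0830, and it passed there by limma with voom precision weights (1.53 ± 0.34, adjusted p = 0.00777). Without FFPE liver, 7 members were lower in kidney and 1 was higher; without frozen liver 1 was higher, and without either kidney profile none was lower.

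**Figure D3:**
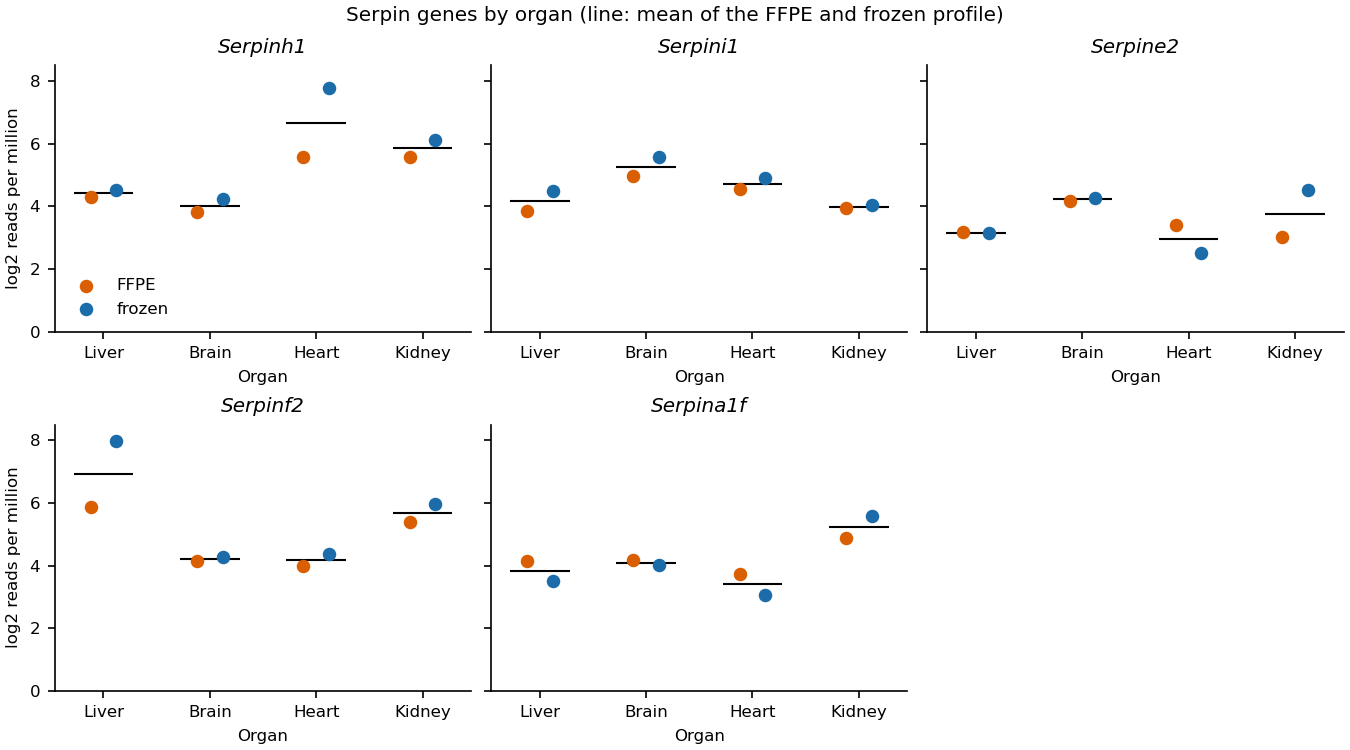
Log2 CPM (vertical axis) of 5 serpin genes in FFPE (left point) and frozen (right point) tissue of each organ, with a line at their mean. Serpinh1 has its highest mean in heart, Serpini1 and Serpine2 in brain, Serpinf2 in liver and then kidney, and Serpina1f in kidney.

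The proteases that serpins inhibit, and the receptors that clear the complexes, were read from the same fit. Of 15 clotting, fibrinolysis and complement proteases, 13 were higher in liver (background 4.52%) and 2 lower (background 3.39%), with a median log2 fold of 1.81. The largest were Plg (plasminogen, 3.69 ± 0.34), F10 (2.44 ± 0.43) and Masp2 (2.25 ± 0.31), while the plasminogen activators Plau (-1.47 ± 0.29) and Plat (-1.40 ± 0.30) were lower. Plau was higher in kidney (3.00 ± 0.29) and Plat in brain (1.20 ± 0.30). Of 14 granule and other proteases, Hpn, Ctsl and Tmprss6 were higher in liver (1.83, 1.51 and 1.32), and Prss8, Klk1 and St14 in kidney (2.72, 2.74 and 1.22). Among 10 cofactors and receptors, 4 were higher and 4 lower in liver: Vtn (vitronectin, an adhesion protein of plasma) had 2.65 ± 0.43, Sdc4 2.52 ± 0.37 and Lrp1, a receptor that clears serpin complexes, 0.91 ± 0.23, while Lrp2 was higher in kidney (2.73 ± 0.22) and Thbd in heart (2.10 ± 0.32).

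Of 20 protease inhibitors of other families, 11 were higher in liver (background 4.52%) and 2 lower (background 3.39%), with a median log2 fold of 1.51. Ahsg (fetuin A) had 5.48 ± 0.46, Mug1 (murinoglobulin) 5.22 ± 0.29 and Pzp 2.97 ± 0.30, whereas the metalloprotease inhibitors Timp3 (-2.16 ± 0.23) and Timp2 (-1.38 ± 0.27) were lower. Of 12 transcription factors known from liver serpin promoters, 9 were higher in liver, among them Hnf4a (2.77 ± 0.30), Foxa3 (2.65 ± 0.40) and Onecut1 (2.58 ± 0.49). Hnf4a was also higher in kidney (1.77 ± 0.30).

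FFPE was then compared with frozen tissue over the 4 organs, with organ as a block, to ask whether preservation moves serpin values. None of the 65 members passed by limma in either direction (background 0.153% higher and 0.422% lower), and 8 had an unadjusted p under 0.05. With voom precision weights, 7 members were lower in FFPE and none higher. These were Serpina1a, Serpina1b, Serpina3k, Serpina3m, Serpina3n, Serpina4-ps1 and Serpinf2, all among the genes called higher in liver. The share of all genes called with these weights is not given, so the count does not show an effect common to the 4 organs. Serpina1e was higher in FFPE in all 4 organs (2.06 ± 0.61, adjusted p = 0.173). Its widest difference, 4.81 in heart, rests on 7 reads in FFPE and 0 in frozen tissue, so it depends on the 0.5 reads added. Leaving out single profiles, the Serpina1e fold ran from 1.15 to 2.49. Serpinh1 and Serpinf2 were lower in all 4 organs (-0.85 ± 0.29 with an adjusted p of 0.27, and -0.80 ± 0.29 with one of 0.309). The Serpinh1 difference was widest in heart, where 37 reads in FFPE and 324 in frozen tissue gave a ratio of 0.214 after scaling (95% interval 0.148 to 0.301, counting error only). In FFPE and frozen kidney it had 67 and 133 reads, a ratio of 0.685 (0.503 to 0.925).

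**Figure D4:**
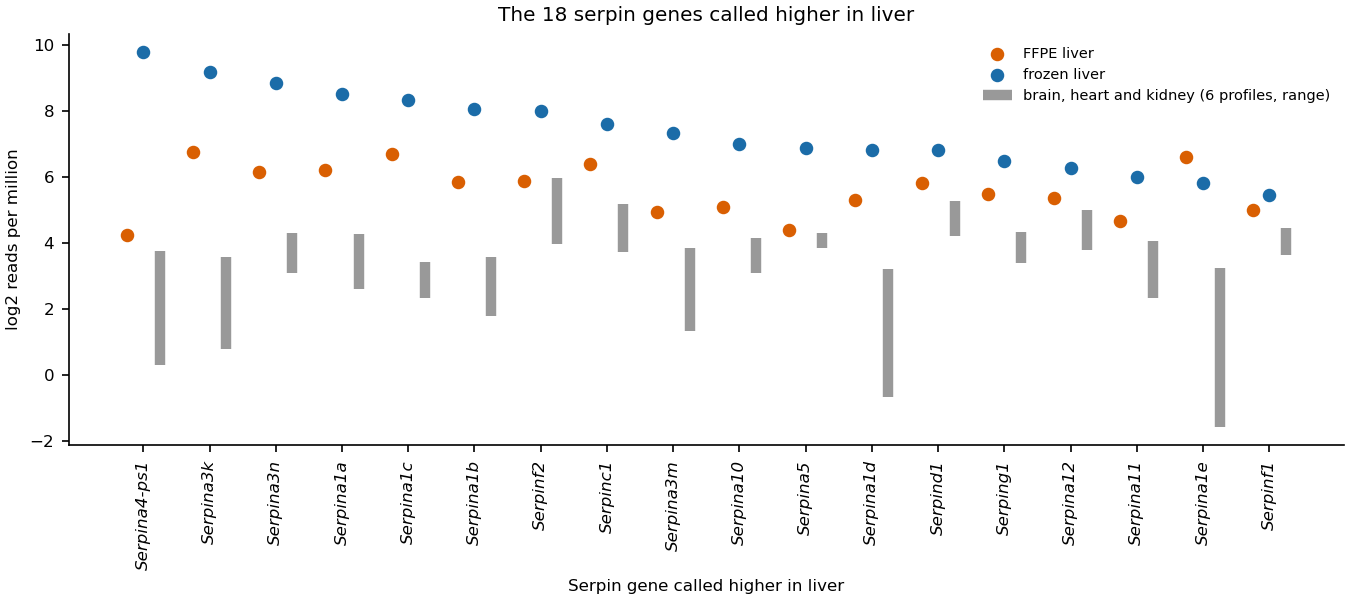
Log2 CPM (vertical axis) of the 18 serpin genes called higher in liver, in FFPE liver and in frozen liver (points), beside the range of the 6 brain, heart and kidney profiles (bars). For 17 of the 18 genes the FFPE liver point lies below the frozen one, and Serpina1e is the exception.

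The 18 genes called higher in liver were then compared between FFPE and frozen tissue. For all 18 the log2 fold over the other organs was smaller within FFPE tissue (median 1.88) than within frozen tissue (median 3.94). Within liver, 17 of the 18 were lower in FFPE than in frozen tissue, 15 of them by at least 1 on the log2 scale, which 14.4% of all genes tested were. The median FFPE minus frozen difference of the 18 was -1.77 in liver, against -0.05 in brain, 0.58 in heart and -0.31 in kidney, whereas the other 47 members had a median of 0.08 in liver, against -0.19 in brain, -0.27 in kidney and -0.32 in heart. The 18 were called from these same 2 liver profiles, so these numbers describe them and carry no test. They were also called for lower values outside liver, which left a loss in FFPE less room to show in the other organs. Serpina4-ps1 differed most, by -5.53, and Serpina1e was the one higher in FFPE, by 0.77.

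Whether the difference in liver departed from that in the other 3 organs was tested per gene, 1 difference against 3. The single liver difference has no spread of its own and was assumed to vary like the others, so the p-values rest on that assumption. Outside liver Serpina3n had 12 to 32 reads a profile and Serpina4-ps1 2 to 25, which left a loss in FFPE little room to show there. For such genes the test cannot tell a change particular to liver from one that only liver had the reads to show. By limma 2 members passed, both lower (background 0.419% lower and 0.112% higher). Serpina3n differed between FFPE and frozen tissue by -2.68 in liver, against -0.05 in brain, 1.21 in heart and 0.15 in kidney, so that liver departed by -3.12 ± 0.62 (adjusted p = 0.0115). Serpina4-ps1 departed by -4.84 ± 1.17 (adjusted p = 0.0425), with -5.53 in liver, against -3.45 in brain, 1.11 in heart and 0.26 in kidney. Summed, the Serpina3 copies departed by -2.10 ± 0.36 (adjusted p = 0.00268), a call lost with scaling to receptor genes (-2.30, adjusted p = 0.140) and with quantile normalization (-0.34, adjusted p = 0.830), and the Serpina1a to Serpina1e copies by -1.93 ± 0.49, which missed the threshold (adjusted p = 0.0601) and was -0.09 with quantile normalization (adjusted p = 0.984). Serpina5 (-2.53 ± 0.68, adjusted p = 0.0835), Serpinf2 (-1.74 ± 0.51, adjusted p = 0.129) and Serpinc1 (-1.85 ± 0.58, adjusted p = 0.163) did not pass. Without heart the count of lower members was 4, with Serpina5 (adjusted p = 0.0129) and Serpinf2 (adjusted p = 0.0297) past the threshold. With quantile normalization it was 0, and Serpina4-ps1 was also lost with no filter on low values (adjusted p = 0.0817), with reads added in proportion to depth (adjusted p = 0.0834) and with mitochondrial genes and scaling factors left out (adjusted p = 0.0584).

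Hepatocyte markers moved the same way. All 6 were lower in FFPE than in frozen liver, with a median difference of -2.51, and their summed level was 1462 CPM in FFPE liver and 8383 in frozen liver, against 54.3 to 139 in the other 6 profiles. Tested against the other organs, 3 of these 6 departed (Apoa1, Alb and Tat, by -3.56, -2.87 and -2.78). Among the other inhibitors Ahsg and Pzp did (-3.26 and -1.81), among the transcription factors Cebpa did (-2.18), and among the cofactors and receptors Sdc4 did (-2.73), with 97 reads in FFPE liver and 1743 in frozen liver. Markers of some other cell types lay the other way in liver, none of them called: all 6 neuron markers were at higher values in FFPE than in frozen liver (median difference 1.11, summed level 194 CPM in FFPE liver and 92.1 in frozen liver), as were 5 of 6 macrophage markers (median 0.44) and 4 of 6 proximal tubule markers (median 0.49). Endothelial and neutrophil markers had negative median differences, -0.50 (3 of 5 lower in FFPE liver) and -0.34 (3 of 6 lower). Fibroblast, cardiomyocyte, adipocyte and exocrine pancreas markers had medians of 0.07, 0.08, 0.50 and 0.73, with 2 markers of each lower in FFPE liver. Neuron and proximal tubule markers are not known from liver cells, so their reads there may be background, like those of the receptor genes. The receptor genes had 6954 of 864816 reads in FFPE liver and 11935 of 2178329 in frozen liver. FFPE liver also had the smallest total of the 8 profiles, and frozen liver the largest. The part of cell content, background reads, depth or extraction in the serpin differences was not tested, and preservation and extraction cannot be told apart here.

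**Figure D5:**
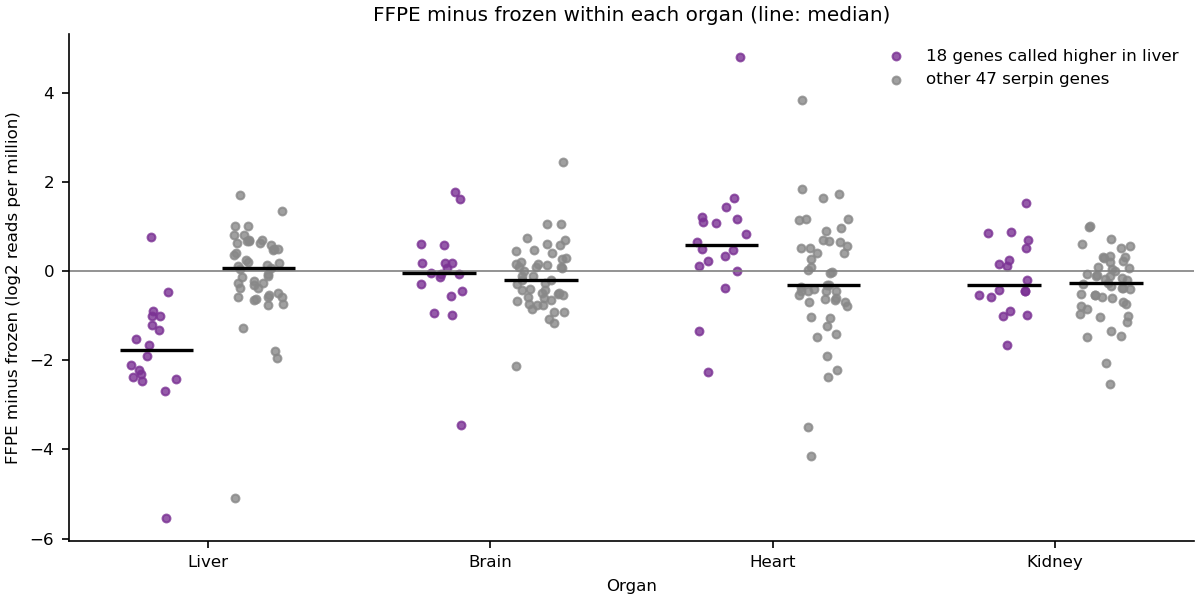
FFPE minus frozen difference (vertical axis, log2 CPM) in each organ for the 18 serpin genes called higher in liver and for the other 47, with a line at each median. In liver the median of the 18 lies at -1.77 and that of the other 47 at 0.08, whereas in the other organs the medians lie between -0.32 and 0.58.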

How the data were processed

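The authors aligned reads with Bowtie2 to mm10, counted them per gene with featureCounts and used limma, per the submitters' processing notes; their versions, the strand setting and the handling of reads that fit several places are not stated in any source at hand. The series holds 32 libraries, of which 16 are Pol II libraries and the others input, in 16 groups of 2. The deposited table gives log2 values, on the scale of limma's voom, for 8 profiles, taken to be Pol II from its title; it carries no replicate numbers, and input was not analysed here. All values (100%) returned whole reads after removal of the 0.5 reads added, within a relative tolerance of 1e-06, and copies were summed on those reads. Because the table came as log2 values with 1 profile for each organ and preservation, limma was the test.

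Rows were tested if 2 or more profiles had a log2 value of 0 or above (26758, all 65 members included); of the 27179 rows of the whole table, 1275 have no symbol. The model had terms for organ and for preservation and was fitted in limma 3.58.1 under R 4.3.3, with trended empirical Bayes and p-values adjusted by Benjamini-Hochberg over all genes, called under 0.05 (3 residual degrees of freedom, prior 19.4). The FFPE minus frozen differences were fitted as liver against the other 3 organs (2 residual, prior 31.6), where the lone difference is assumed to vary like the others. The fit was tested on simulated data. Intervals are exact binomial at 95%. Alternatives were no filter, reads added in proportion to depth, scaling to receptor genes, mitochondrial genes and scaling factors left out, quantile normalization, voom weights and leaving out each profile; leaving out both liver profiles was chosen after seeing the data. Coordinates and promoter sequences are RefSeq's on GRCm38.p6, the assembly that mm10 names. Named genes are those past the threshold, up to 12 a contrast, and up to 8 not past it with the highest levels, and other genes named beside them, such as the hormone carriers, were chosen after their values were seen. 1 member and 2 listed transcription factors are counted but not reported singly here. The members and gene lists were chosen with earlier results of these data known.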

Additional observations from a re-analysis of the deposited data

Results flagged for a closer look

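For Serpina4-ps1, Serpina3n and the summed Serpina3 copies, the FFPE minus frozen difference in liver departed from that in the other 3 organs by limma. The single liver difference was assumed to vary like the others. Outside liver Serpina4-ps1 had 2 to 25 reads a profile and Serpina3n 12 to 32, which left a loss in FFPE little room to show there. Serpina4-ps1 departed by -4.84 ± 1.17 (adjusted p = 0.0425), on 17 reads in FFPE liver and 1632 in frozen liver, and its difference in brain, -3.45 on 2 and 25 reads in FFPE and frozen tissue, also lay below 0. Serpina3n departed by -3.12 ± 0.62 (adjusted p = 0.0115), on 66 reads in FFPE liver and 861 in frozen liver. The summed Serpina3 copies, which include Serpina3n, departed by -2.10 ± 0.36 (adjusted p = 0.00268), on 308 reads in FFPE liver and 2491 in frozen liver.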

How the results depend on the processing

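Counts of members called are given against the main ones. Shares of all genes called are given only for the main fit and with both liver profiles left out. A change in the other counts can therefore also follow a change in calls over all genes. With no filter on low values, 0 members were lower in liver (main 1), 3 lower in heart (main 5) and 1 departed in liver in its FFPE minus frozen difference (main 2). With reads added in proportion to depth these were 0 in liver and 1 for the departure, and with mitochondrial genes and scaling factors left out the departure count was 1. With scaling to receptor genes, 0 were lower in liver and 2 lower in kidney (main 1), and the summed Serpina3 departure was -2.30 (adjusted p = 0.140). With quantile normalization, 1 was higher (main 0) and 2 lower in kidney, 0 departed, and the summed departures were -0.34 for Serpina3 (adjusted p = 0.830) and -0.09 for Serpina1a to Serpina1e (main -1.93; adjusted p = 0.984). With voom weights, 1 was higher in brain (main 0), 3 lower in heart, 1 higher in kidney and 7 lower in FFPE (main 0); the departures were not fitted with weights. With both liver profiles left out, 3 were lower in brain (main 7), 1 lower in heart, 2 higher and 0 lower in kidney. The causes were not tested, beyond that the last setting removes the liver values. The count higher in liver was 17 to 20 (main 18) under every setting other than leaving out a profile.

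Leaving out single profiles, the counts ran from 8 to 20 higher and 0 to 1 lower in liver, 1 to 12 lower in brain, 0 to 2 higher and 1 to 10 lower in heart, 0 to 1 higher and 0 to 7 lower in kidney, and, leaving out an organ, 2 to 4 for the departure. The summed Serpina1a to Serpina1e fold in liver ran from 3.35 to 5.28 and its departure from -2.43 to -1.55; the summed Serpina3 fold in liver ran from 1.38 to 3.48 and its departure from -2.14 to -2.04. The Serpina1a to Serpina1e departure passed the threshold in 2 of these.

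Values that changed sign were all uncalled. FFPE against frozen over the 4 organs, main -0.17 for the summed Serpina1a to Serpina1e, was 0.26 with quantile normalization and -0.58 to 0.31 leaving out profiles; main -0.43 for summed Serpina3 was 0.040 and -0.64 to 0.10. In liver, main 0.08 for the summed Serpinb9 copies was -0.039 with mitochondrial genes and scaling factors left out, -0.033 with quantile normalization and -0.20 to 0.35 leaving out profiles.

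Scaling moved the median of all genes by -0.23 in brain and 0.23 in heart (receptor genes) and by 0.31 for the departure (mitochondrial genes left out). No paired analysis was possible because the columns carry no replicate numbers. A median of 10 to 34 reads per member and profile limits what single members can show.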
